A study of Macaca mulatta with 6 samples.

Results

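The genes described here encode the cAMP-dependent protein kinase (PKA) and factors that act around it, measured in the adrenal gland of the rhesus macaque over the day. They are the regulatory subunits PRKAR1A, PRKAR1B, PRKAR2A and PRKAR2B, the catalytic subunits PRKACA and PRKACB, the transcription factors CREM and CREB1, and the phosphodiesterases PDE8A and PDE8B. They are 10 of the 11963 genes that the array's annotation names alone on a probe set. All probe sets carrying 1 of these 10 names were taken, which gave 24, and none of the 24 names a second gene. Of the 24, 19 passed a filter on level (a mean log2 value of 7.30 or more, which is the array's median with control probe sets left out), and they cover 9 of the 10 genes, since neither probe set of PRKAR1B passed.

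In the adrenal cortex the pituitary hormone ACTH binds its receptor, MC2R, which acts through the stimulatory G protein and adenylyl cyclase to raise cAMP. The cAMP binds the regulatory subunits of PKA and frees the catalytic subunits, which phosphorylate CREB-family factors and other proteins and so raise steroid production, while phosphodiesterases degrade cAMP. In people, inactivating mutations of PRKAR1A and activating mutations of PRKACA cause adrenal nodules or tumours that make cortisol.

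Each of the 6 arrays held RNA from the left adrenal of 1 ovariectomized female, and the 6 animals were collected 4 h apart at 3 AM, 7 AM, 11 AM, 3 PM, 7 PM and 11 PM. All had been kept for 3 months in 12 h of light and 12 h of dark and were fasted for 12 h before necropsy. When the lights came on is not stated in the labels. The animal of 3 AM was aged 12 years, that of 7 AM also 12 years, that of 11 AM 10 years plus 37 days, that of 3 PM 8 years plus 106 days, that of 7 PM 7 years plus 82 days, and that of 11 PM 8 years plus 70 days. With 1 animal per clock time, a difference between times and a difference between animals, age included, cannot be told apart, and p-values measure the spread of single animals around a fitted curve or within day and night. The array was designed on human sequence, so levels are compared only within a probe set. A probe set whose name ends in _s_at can match several transcripts of a gene or family, and one ending in _x_at can also match unrelated transcripts.

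The tissue carried both parts of the gland. All 8 cortex markers on the array (among them STAR, CYP11A1 and CYP17A1) and all 9 medulla markers (among them TH, DBH and PNMT) passed the level filter. Summed intensities of the medulla markers were 15692 at 3 AM, 39423 at 7 AM, 23901 at 11 AM, 29853 at 3 PM, 24019 at 7 PM and 21769 at 11 PM, and those of the cortex markers were lowest at 3 AM (54555) and highest at 7 PM (82180). No marker of these or of 9 other cell types read 0 on any array, but the lowest deposited value is 0.1. A marker value above 0 thus does not show that its cell type is present. The hybridisation controls, transcripts spiked in at fixed amounts, were dimmest at 3 AM (geometric mean 414) and 3 PM (538), against 790 to 900 on the other arrays.

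No member passed the test for a 24-h course after adjustment. In a cosine of 24-h period fitted to log2(intensity + 1) and tested with limma's moderated F test, 0 of the 19 probe sets had an adjusted p under 0.05, as did 0% of the 11108 probe sets tested, and the lowest adjusted p of a member was 0.866. At an unadjusted p under 0.05 there was 1 of 19, a probe set of PRKACA, beside 5.44% of all probe sets tested. The median fitted peak-to-trough difference was 0.49 on the log2 scale over the members and 0.44 over all probe sets tested, with a median standard error of 0.33 and 0.32. A fitted size is never negative, so one about as large as its standard error is no sign of a rhythm. The number of arrays, 6, limits the precision of every value here.

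**Figure D1:**
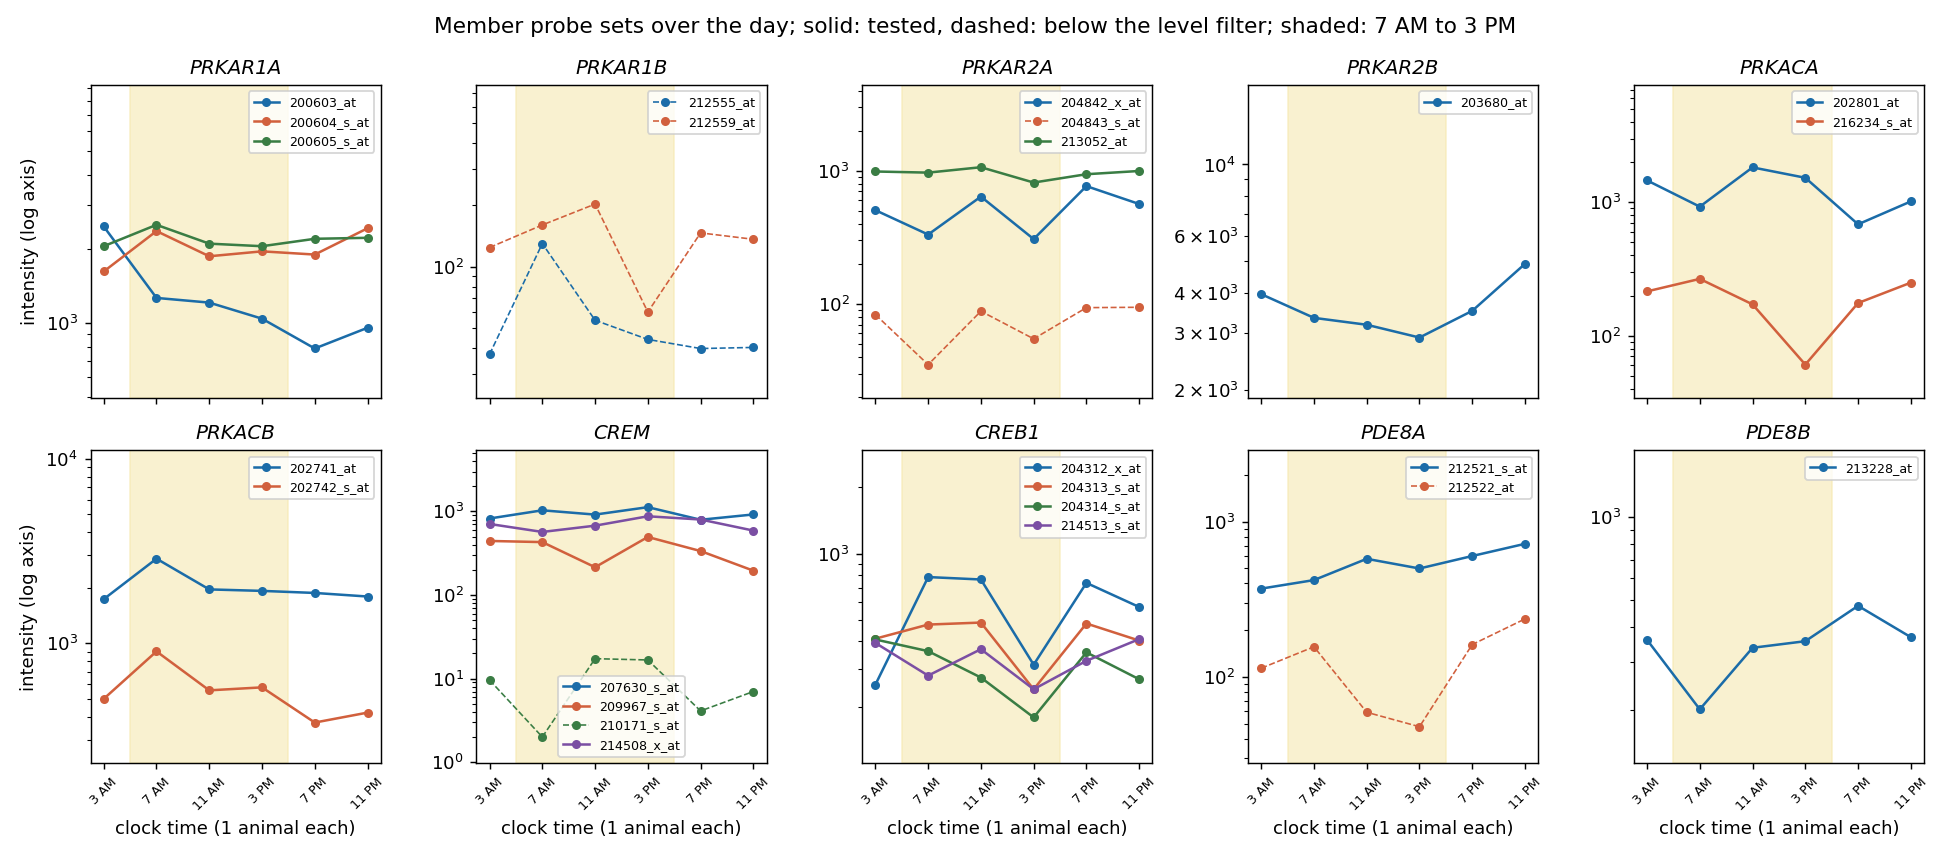
Intensity (log axis) of all 24 probe sets at the 6 clock times, 1 panel per gene and 1 point per animal; solid lines are the 19 tested probe sets, dashed lines the 5 below the level filter, and shading marks 7 AM to 3 PM. The probe set 200603_at of PRKAR1A descends to 786 at 7 PM, while the other probe sets of that gene stay within 1.5 times their own lowest value.

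PRKAR1A, the type I regulatory subunit and the one best known from adrenal disease, gave different courses on its 3 probe sets. The probe set 200603_at read 2464 at 3 AM, 1262 at 7 AM, 1207 at 11 AM, 1039 at 3 PM, 786 at 7 PM and 954 at 11 PM. It was highest at 3 AM and lowest at 7 PM, a span of 3.14-fold. The probe set 200604_s_at read 1616 at 3 AM, 2360 at 7 AM, 1864 at 11 AM, 1952 at 3 PM, 1894 at 7 PM and 2423 at 11 PM, and 200605_s_at read 2048 at 3 AM, 2502 at 7 AM, 2098 at 11 AM, 2048 at 3 PM, 2195 at 7 PM and 2216 at 11 PM. On these the whole span was 1.5-fold and 1.22-fold, and 200604_s_at was lowest at 3 AM, where 200603_at was highest. Over the 6 arrays 200603_at correlated at r = -0.54 and r = -0.24 with the other pair, which correlated with each other at 0.74 (log2 values, n = 6 arrays shared by all 3, given as a description).

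The fitted peak-to-trough difference of 200603_at was 1.11 ± 0.43 on the log2 scale (SE, n = 6 arrays), with a peak at 5.13 h (limma unadjusted p = 0.0899, adjusted p = 0.866). Without the 7 AM array it was 1.62 and passed the unadjusted threshold (limma unadjusted p = 0.0328), whereas without the 3 AM array it was 0.62. A straight line on the animals' age had an R2 of 0.696 for this probe set and the cosine, with 1 more term, 0.579. For 200604_s_at and 200605_s_at the peak-to-trough difference was 0.06 ± 0.33 and 0.11 ± 0.27 (SE).

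PRKAR1B, the other type I regulatory subunit, known mainly from brain, lay below the level filter on both probe sets and was not tested. The probe set 212559_at, at level percentile 45.3 of the non-control probe sets, read 124 at 3 AM, 159.7 at 7 AM, 202 at 11 AM, 60.1 at 3 PM, 146 at 7 PM and 136 at 11 PM. The probe set 212555_at, at level percentile 25.7, read 37.4 at 3 AM, 129.6 at 7 AM, 54.8 at 11 AM, 44.2 at 3 PM, 39.9 at 7 PM and 40.4 at 11 PM. Highest and lowest readings fell at 11 AM and 3 PM on 212559_at, and at 7 AM and 3 AM on 212555_at. The single high value of 212555_at at 7 AM was 3.47 times its lowest.

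PRKAR2A and PRKAR2B encode type II regulatory subunits, which bind A-kinase anchoring proteins and so place PKA within the cell. PRKAR2B on 203680_at read 3957 at 3 AM, 3340 at 7 AM, 3179 at 11 AM, 2901 at 3 PM, 3512 at 7 PM and 4914 at 11 PM. Its 3 day readings (7 AM, 11 AM and 3 PM) all lay below its 3 night readings (7 PM, 11 PM and 3 AM), with the lowest at 3 PM. The mean was 11.61 by day and 12.00 by night on the log2 scale, a difference of -0.38 ± 0.20 (SE, limma unadjusted p = 0.0915, adjusted p = 0.916). The fitted peak lay at 0.339 h, just after midnight, with a peak-to-trough difference of 0.63 ± 0.27 on the log2 scale (SE), and an R2 of 0.824, against a median of 0.401 over the members and 0.395 over all probe sets tested. limma gave an unadjusted p of 0.135 (adjusted p = 0.866). In an exact test of R2 over the 60 ways to order the 6 arrays on a circle, the smallest possible p is 0.0167. This exact test gave PRKAR2B p = 0.05, unadjusted over the 19 members tested, and PDE8B on 213228_at had the same value.

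The summed intensity of markers of adipocytes, a cell type in which PRKAR2B is the main regulatory subunit in the mouse, was also highest at 3 AM and 11 PM, and their part in the PRKAR2B result was not tested. Over the 5 listed markers the sum was 3716 at 3 AM, 1302 at 7 AM, 2115 at 11 AM, 1287 at 3 PM, 1983 at 7 PM and 3175 at 11 PM. The sum comes mostly from FABP4 and LPL. ADIPOQ, PLIN1 and LEP, the more defining markers, had mean intensities of 111, 48.4 and 13.8 and lay below the level filter. FABP4, LPL and PLIN1 had their highest readings at 3 AM and 11 PM, whereas ADIPOQ was second highest at 11 AM (139, beside 105 at 11 PM) and LEP was highest at 7 AM (18.2) and read 8.8 at 11 PM. In bulk tissue, fewer cells of a type and less RNA per cell cannot be told apart.

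PRKAR2A on 213052_at read 989 at 3 AM, 969 at 7 AM, 1064 at 11 AM, 817 at 3 PM, 943 at 7 PM and 997 at 11 PM, a span of 1.3-fold with the lowest value at 3 PM. The probe set 204842_x_at read 506 at 3 AM, 332 at 7 AM, 640.2 at 11 AM, 307 at 3 PM, 768 at 7 PM and 563 at 11 PM, and 204843_s_at, below the level filter, read 83.2 at 3 AM, 35 at 7 AM, 88.2 at 11 AM, 54.7 at 3 PM, 93.8 at 7 PM and 94.4 at 11 PM. On these 2 the 7 AM and 3 PM readings were the lowest, while on 213052_at the 7 AM reading was close to those of the other times. The peak-to-trough difference was 0.18 ± 0.27 for 213052_at and 0.59 ± 0.51 for 204842_x_at (log2, SE). By day 204842_x_at was lower than by night, with a log2 difference of -0.58 ± 0.31 (SE, limma unadjusted p = 0.0957). Without the 11 AM array this was -0.91 and passed the unadjusted threshold (limma unadjusted p = 0.0081). It was -0.44 without 7 AM, -0.39 without 3 PM and -0.41 without 7 PM, none of which passed. The sign turned, to 0.22, with the day taken as 11 AM, 3 PM and 7 PM.

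The fitted peaks of all 6 tested regulatory-subunit probe sets lay between 7 PM and 7 AM, but 3 of the 6 belong to PRKAR1A and 2 to PRKAR2A. Over all probe sets tested, 5856 of 11108 had a peak between 7 and 19 h. Peak times of probe sets with so small a difference are poorly set, with a standard error of 20.3 h for 200604_s_at and 9.40 h for 200605_s_at.

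**Figure D2:**
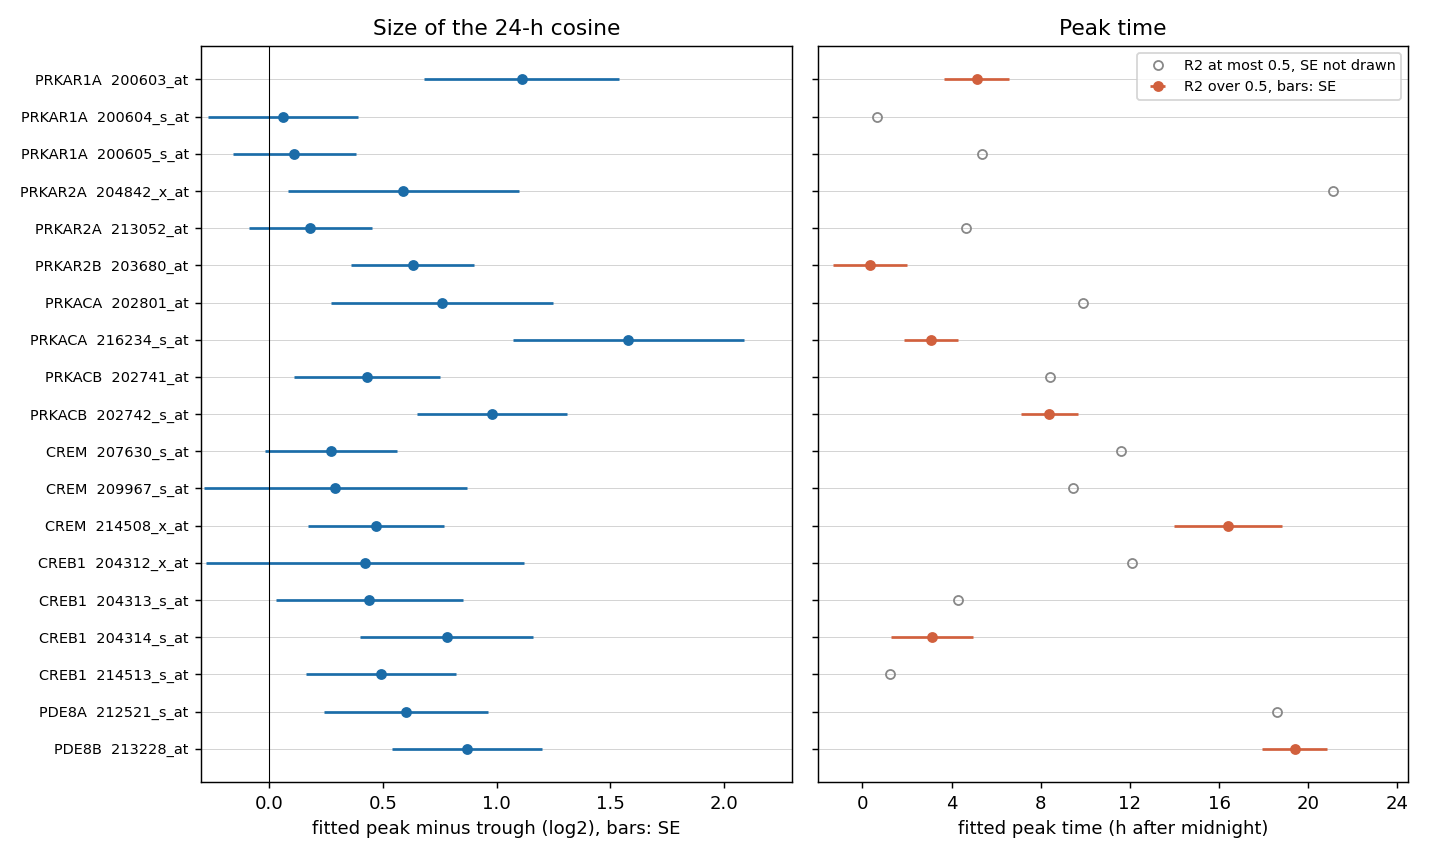
Fitted log2 peak-to-trough difference (left) and fitted peak time in hours after midnight (right) for the 19 tested probe sets; bars are standard errors of the fit, and peak times with an R2 of at most 0.5 are open circles without bars. The largest difference is 1.58 for PRKACA 216234_s_at, and peak times of probe sets of the same gene often differ by several hours.

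The catalytic subunits held the members with the smallest limma p in the cosine fit and in the day contrast, and the paired probe sets differed in course for PRKACA and were alike for PRKACB. PRKACA, the subunit mutated in human cortisol-producing adenomas, read 215 at 3 AM, 267 at 7 AM, 172 at 11 AM, 60.8 at 3 PM, 176 at 7 PM and 250 at 11 PM on 216234_s_at. The 3 PM value was far below the other 5, and the mean lay at level percentile 52.9, close to the filter. On the log2 scale the mean was 7.15 by day and 7.73 by night, so the day mean alone would not have passed the filter. On 202801_at PRKACA read 1460 at 3 AM, 928 at 7 AM, 1827 at 11 AM, 1527 at 3 PM, 684 at 7 PM and 1015 at 11 PM. There 11 AM and 3 PM were the highest readings and 7 PM the lowest, and the correlation of the 2 probe sets was -0.40 (n = 6 arrays, a description).

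The cosine fitted to 216234_s_at had a peak-to-trough ratio of 3.00 (log2 1.58 ± 0.51, SE) with its peak at 3.08 h (limma unadjusted p = 0.0457, adjusted p = 0.866; exact order test p = 0.1). Without the 3 PM array the log2 difference was 0.65 (limma unadjusted p = 0.349), without 7 AM it was 1.46 (limma unadjusted p = 0.0901) and without 11 PM 1.5 (limma unadjusted p = 0.0785), none of which passed. With the ordinary F statistic, which borrows no spread from other probe sets, it did not pass either, nor with no level filter or with limma's trend and robust prior (limma unadjusted p = 0.102 and 0.0559). By day 216234_s_at differed from night by -0.58 ± 0.47 (log2, SE). This was -1.04 without the 7 AM array and -0.98 with the day taken as 11 AM, 3 PM and 7 PM. Both passed the unadjusted threshold. Without the 3 PM array, however, the day difference was 0.02, with the sign turned. With age as a covariate the peak-to-trough difference of 216234_s_at was 4.81 ± 1.84 (log2, SE). That is larger than the whole observed range of 2.12, so that fit gives no usable size. For 202801_at the peak-to-trough difference was 0.76 ± 0.49 with a peak at 9.91 h, 6.82 h away. Among the arrays left out in turn, it passed the unadjusted threshold only without the 7 AM array (1.47, limma unadjusted p = 0.0322).

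The probe sets with the course most like 216234_s_at over the 6 arrays belonged to NCK1, an adaptor protein (r = 0.993), PTPRS, a receptor tyrosine phosphatase (r = 0.982), and KCNJ8, a potassium channel subunit (r = 0.981). All 3 were also lowest at 3 PM, where KCNJ8 read 83.9 and the other arrays 254 to 355. They were picked by this correlation, so their low reading at 3 PM is no separate result. Of 9811 probe sets of other genes that were compared, 31 had an r above 0.95.

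PRKACB, the second widely expressed catalytic subunit, had its highest reading at 7 AM on both of its probe sets. On 202742_s_at it read 499 at 3 AM, 903 at 7 AM, 555 at 11 AM, 576 at 3 PM, 371 at 7 PM and 421 at 11 PM. On 202741_at it read 1735 at 3 AM, 2875 at 7 AM, 1959 at 11 AM, 1923 at 3 PM, 1874 at 7 PM and 1793 at 11 PM. On each, all 3 day readings lay above all 3 night readings. The fitted peaks lay at 8.39 ± 1.29 h on 202742_s_at and 8.44 ± 2.80 h on 202741_at (SE), and neither cosine passed the unadjusted threshold. The 2 probe sets correlated at 0.86 over the 6 arrays. The median was 0.44 over the 15 pairs of tested probe sets of a member gene and 0.24 over 3735 pairs of the whole array.

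The peak-to-trough difference of PRKACB was 0.98 ± 0.33 on 202742_s_at (ratio 1.98; limma unadjusted p = 0.0555, adjusted p = 0.866) and 0.43 ± 0.32 on 202741_at (ratio 1.35; limma unadjusted p = 0.435). Without the 11 AM array that of 202742_s_at was 1.34 and passed the unadjusted threshold (limma unadjusted p = 0.0267), and without the 7 AM array it was 0.62. It also passed with the stricter level filter and with the trend and robust prior (limma unadjusted p = 0.0347 and 0.0404).

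Set against night, day differed for 0 of 19 member probe sets after adjustment, as for 0% of all probe sets tested. The 3 day arrays (7 AM, 11 AM and 3 PM) were compared with the 3 night arrays (7 PM, 11 PM and 3 AM) with limma. At an unadjusted p under 0.05 there was 1 of 19, PRKACB 202742_s_at, beside 5.53% of all, made up of 2.93% higher and 2.59% lower by day. Of the 19, 9 were higher and 10 lower by day, with a median log2 difference of -0.05, against 0.00 over all probe sets tested. The day and night readings did not overlap for 4 of 19 (PRKACB on both probe sets, higher by day; PRKAR2B and PDE8B, lower by day), beside 10.7% of all. An exact test of 3 arrays against 3 cannot go below p = 0.1.

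PRKACB 202742_s_at averaged 9.37 ± 0.39 by day and 8.74 ± 0.21 by night on the log2 scale (SD, n = 3 arrays each), a difference of 0.63 ± 0.25 (SE), or 1.55-fold (limma unadjusted p = 0.0314, adjusted p = 0.841). The other probe set differed by 0.30 ± 0.22. Left-out arrays moved the call: the difference was 0.40 without 7 AM (limma unadjusted p = 0.108), 0.53 without 7 PM (limma unadjusted p = 0.0975) and 0.62 without 11 PM (limma unadjusted p = 0.0685). With the day taken as 11 AM, 3 PM and 7 PM the sign turned, to -0.22. PDE8B, which passed with neither choice of day, lay at 0.37 with that one.

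The medulla markers as a mean were also highest at 7 AM. DBH and SLC18A1, however, were highest at 3 PM (785.9 and 301.5, beside 682.1 and 205.5 at 7 AM). The mean log2 value of the 9 markers, relative to each marker's own mean, was -0.65 at 3 AM, 0.68 at 7 AM, 0.09 at 11 AM, 0.26 at 3 PM, 0.01 at 7 PM and -0.39 at 11 PM. At 7 AM 8 of the 9 exceeded that mean, and at 3 AM 0 of 9 did. Their summed intensity ran from 23901 to 39423 over the day arrays and from 15692 to 24019 over the night arrays. Their part in the PRKACB result was not tested. The cortex markers lay at 0.40 at 7 PM and 0.38 at 11 PM, and all 8 exceeded their mean at both times.

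**Figure D3:**
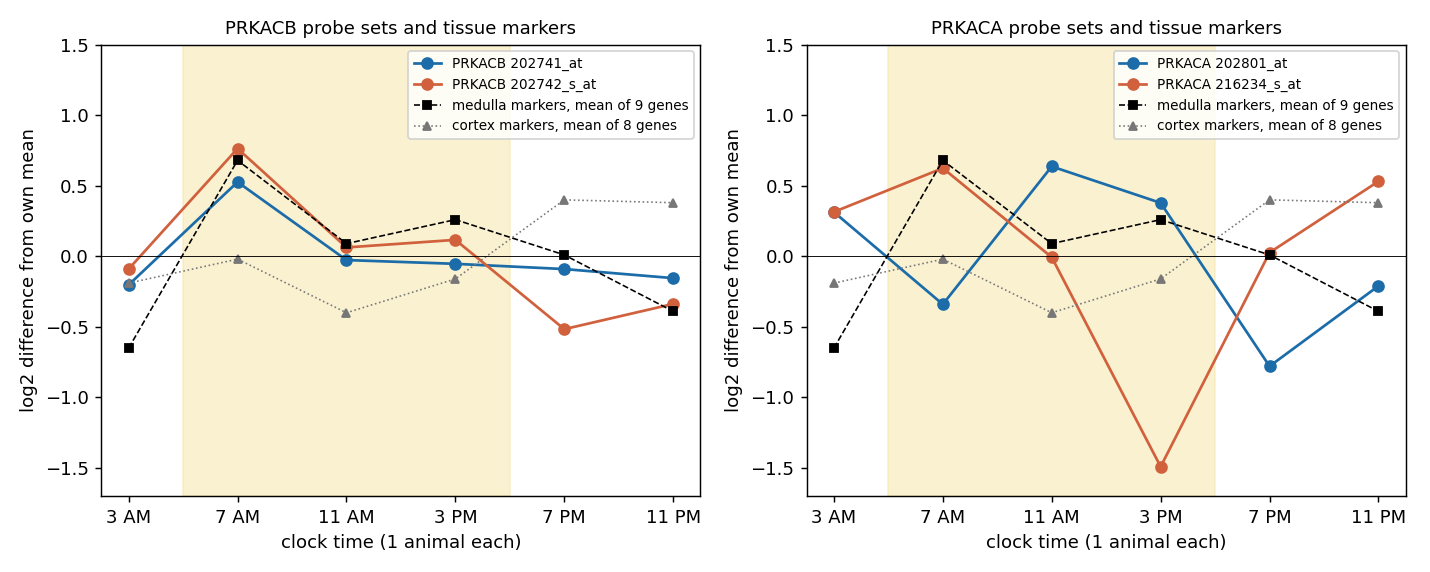
Log2 intensity relative to its own mean over the 6 arrays for the probe sets of PRKACB (left) and PRKACA (right), 1 point per animal, with the mean of 9 medulla markers (squares) and of 8 cortex markers (triangles) in both panels; shading marks 7 AM to 3 PM. The PRKACB probe sets and the mean of the medulla markers are all highest at 7 AM, whereas the PRKACA probe sets part at 3 PM.

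**Figure D4:**
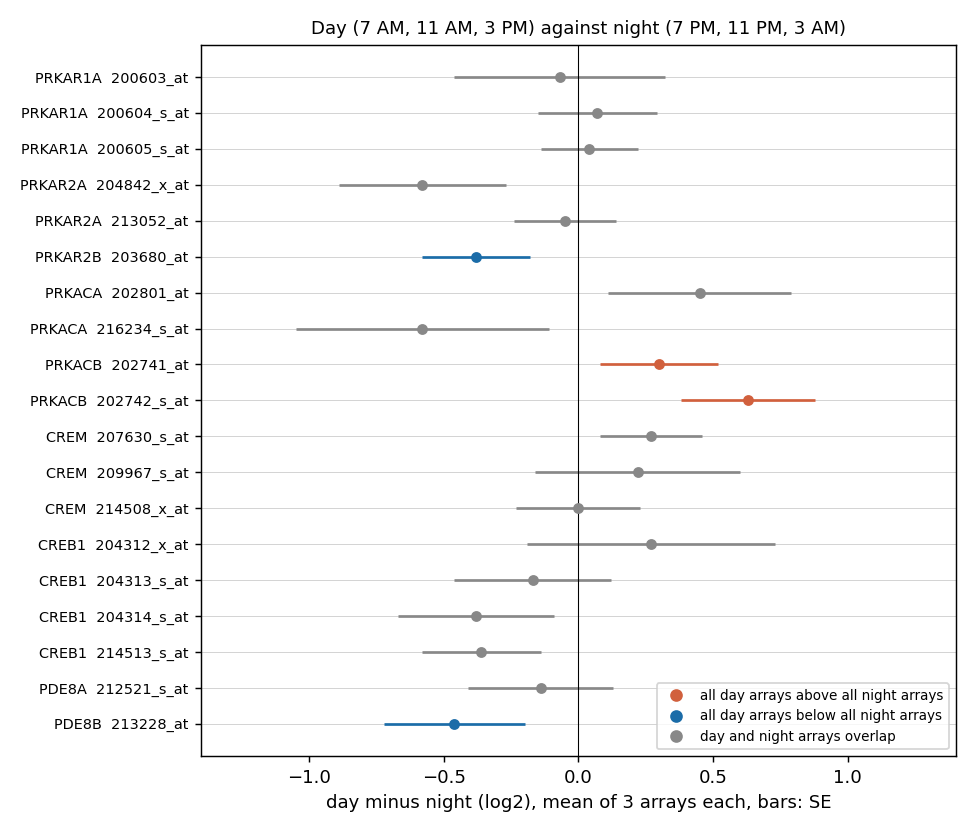
Difference of the mean log2 intensity of 3 day arrays (7 AM, 11 AM, 3 PM) minus that of 3 night arrays (7 PM, 11 PM, 3 AM) for the 19 tested probe sets, with standard errors of the limma fit; colours mark whether the day and night readings overlap. PRKACB 202742_s_at, at 0.63, lies farthest to the right.

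The gene of CREM, a cAMP-responsive factor, also yields the short inducible repressor ICER from an internal promoter. Each of the 3 tested probe sets of CREM was highest at 3 PM, as were 19.1% of all probe sets tested. On 207630_s_at it read 822 at 3 AM, 1031 at 7 AM, 916 at 11 AM, 1124 at 3 PM, 794 at 7 PM and 919 at 11 PM, a span of 1.41-fold. On 214508_x_at it read 707 at 3 AM, 568 at 7 AM, 675 at 11 AM, 874 at 3 PM, 799.8 at 7 PM and 589.6 at 11 PM, and on 209967_s_at 443 at 3 AM, 429 at 7 AM, 215 at 11 AM, 494 at 3 PM, 335 at 7 PM and 195 at 11 PM. The lowest reading fell at a different time on each (7 PM for 207630_s_at, 7 AM for 214508_x_at, 11 PM for 209967_s_at). Pairs of these probe sets correlated at r = 0.01 to 0.44 (n = 6 arrays, a description). Fitted peaks lay at 11.6 h on 207630_s_at, 16.4 h on 214508_x_at and 9.43 h on 209967_s_at. The peak-to-trough differences were 0.27 ± 0.29 on 207630_s_at, 0.47 ± 0.30 on 214508_x_at and 0.29 ± 0.58 on 209967_s_at (log2, SE), with limma unadjusted p of 0.659, 0.341 and 0.888. The fourth probe set, 210171_s_at, averaged 9.45 and lay at level percentile 1.8, below the filter. Which transcripts each probe set matches was not analysed here, so ICER and full-length CREM are not separated.

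CREB1, the constitutive factor that PKA phosphorylates, was low at 3 PM on each of its 4 probe sets. On 3 of them 3 PM was the lowest reading, beside 15.7% of all probe sets tested. The probe set 204313_s_at read 411 at 3 AM, 476 at 7 AM, 486 at 11 AM, 242 at 3 PM, 481 at 7 PM and 403 at 11 PM. The probe set 204314_s_at read 407 at 3 AM, 360.4 at 7 AM, 274 at 11 AM, 180.3 at 3 PM, 356 at 7 PM and 269 at 11 PM, and 214513_s_at read 393 at 3 AM, 279 at 7 AM, 368 at 11 AM, 242 at 3 PM, 326 at 7 PM and 409 at 11 PM. The 3 PM value of 204313_s_at was about 0.73 of the whole log2 range below the next lowest. The exception was 204312_x_at, which read 254 at 3 AM, 782 at 7 AM, 762 at 11 AM, 313 at 3 PM, 736 at 7 PM and 572 at 11 PM, with its lowest value at 3 AM and a span of 3.08-fold.

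The fitted peaks of CREB1 lay at 1.26 h for 214513_s_at, 3.13 h for 204314_s_at, 4.31 h for 204313_s_at and 12.1 h for 204312_x_at, the last with an R2 of 0.0535. The peak-to-trough difference ran from 0.42 ± 0.70 on 204312_x_at to 0.78 ± 0.38 on 204314_s_at (log2, SE; limma unadjusted p = 0.186 for 204314_s_at). Without the 7 PM array that of 204314_s_at was 1.22 and passed the unadjusted threshold (limma unadjusted p = 0.0256).

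PDE8A and PDE8B encode high-affinity cAMP phosphodiesterases, and in the mouse adrenal loss of PDE8B raises steroid output. PDE8B on 213228_at read 359.8 at 3 AM, 202 at 7 AM, 337 at 11 AM, 356 at 3 PM, 478 at 7 PM and 368 at 11 PM. It was lowest at 7 AM and highest at 7 PM, and the 3 day readings all lay below the 3 night readings. The mean was 8.18 by day and 8.64 by night on the log2 scale, a difference of -0.46 ± 0.26 (SE, limma unadjusted p = 0.114, adjusted p = 0.919).

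The fitted peak of PDE8B lay at 19.4 h with a peak-to-trough ratio of 1.82 (log2 0.87 ± 0.33, SE; limma unadjusted p = 0.0885, adjusted p = 0.866; exact order test p = 0.05, unadjusted). Without the 3 AM array the log2 difference was 1.06 and passed the unadjusted threshold (limma unadjusted p = 0.0472), and without the 7 AM array it was 0.45. A straight line on age had an R2 of 0.522, against 0.683 for the cosine with its extra term.

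PDE8A on 212521_s_at read 369.8 at 3 AM, 419.7 at 7 AM, 575 at 11 AM, 498 at 3 PM, 599.9 at 7 PM and 719 at 11 PM. The lowest value, at 3 AM, and the highest, at 11 PM, came from neighbouring clock times. The cosine had an R2 of 0.430 and a straight line on age 0.646. The peak-to-trough difference was 0.60 ± 0.36 (log2, SE; limma unadjusted p = 0.303). The second probe set, 212522_at, below the level filter, read 114 at 3 AM, 156 at 7 AM, 59.1 at 11 AM, 47.7 at 3 PM, 161 at 7 PM and 236 at 11 PM, and was likewise highest at 11 PM but lowest at 3 PM.

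The extremes of the members can be counted by array. At 3 PM, 8 of the 19 tested probe sets had their lowest reading, beside 15.7% of all probe sets tested, and 3 of the 8 belong to CREB1 and 2 to PRKAR2A. One of the 8, PRKAR1A 200605_s_at, differed from its 3 AM reading by less than 1 intensity unit. At 7 AM, 5 of 19 had their highest reading, beside 16.6% of all. The 3 PM array was one of the 2 with dim hybridisation controls, and the part of this in the low readings was not tested.

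The rest of the cAMP pathway was taken from a list of 62 other genes, of which 53 were on a probe set naming them alone and 40 passed the level filter, each represented by its brightest probe set. In the cosine fit 3 of 40 had an unadjusted p under 0.05 and in the day contrast 4 of 40, all higher by day. Over all probe sets tested these shares were 5.44% and, for higher by day, 2.93%. None passed after adjustment (lowest adjusted p 0.643 by limma). The median day difference of the 40 was 0.00, the same as over all probe sets tested, with 22 higher and 18 lower. The day and night readings did not overlap for 7 of 40, all higher by day, beside 10.7% of all probe sets in either direction.

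The largest day difference belonged to RGS2, a regulator that shortens G-protein signals and inhibits adenylyl cyclases. RGS2 read 289 at 3 AM, 1121 at 7 AM, 2279 at 11 AM, 1167 at 3 PM, 272 at 7 PM and 631 at 11 PM. The 3 day readings all exceeded the 3 night readings, by a log2 difference of 1.97 ± 0.39 (SE, limma unadjusted p = 0.000752, adjusted p = 0.643). With each array left out in turn that difference lay between 1.64 and 2.36 and passed each time, and it was 0.61 ± 0.75 with the day taken as 11 AM, 3 PM and 7 PM. The cosine peaked at 11.0 h (log2 2.58 ± 0.70, limma unadjusted p = 0.0199), and without the 11 AM array it did not pass (2.11, limma unadjusted p = 0.131).

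Of 5 tested adenylyl cyclases, 2 were among the 4. ADCY1, a cyclase stimulated by calcium and calmodulin, read 196 at 3 AM, 328 at 7 AM, 321 at 11 AM, 292 at 3 PM, 202 at 7 PM and 172 at 11 PM. Its day readings exceeded its night readings by 0.72 ± 0.18 on the log2 scale (SE, limma unadjusted p = 0.00348), and its cosine peaked at 10.7 h (1.03 ± 0.27, limma unadjusted p = 0.0170), which did not pass without the 11 PM array (1.04, limma unadjusted p = 0.0803). ADCY2, a cyclase stimulated by G-protein beta-gamma subunits, read 225 at 3 AM, 690.4 at 7 AM, 518 at 11 AM, 663 at 3 PM, 509 at 7 PM and 306 at 11 PM, with a day difference of 0.92 ± 0.30 (SE, limma unadjusted p = 0.0147). Without the 3 AM array this was 0.65 and did not pass (limma unadjusted p = 0.0535), and the cosine of ADCY2 (1.33 ± 0.44, limma unadjusted p = 0.0490) did not pass without 3 AM (0.90), 3 PM (1.35), 7 PM (1.36) or 11 PM (1.37).

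A second tested probe set of ADCY2, 217687_at, was also higher by day (0.54 ± 0.22 on the log2 scale, SE, limma unadjusted p = 0.0358). A further one, 213219_at, lay below the level filter and was highest at 7 PM. The other probe sets of ADCY1 also lay below the filter and were highest at 7 PM and 11 PM. ADCY3, ADCY6 and ADCY9 had day differences between -0.29 and 0.02. The medulla markers, given above, also had a higher log2 mean on each day array than on any night array, and their part in the RGS2, ADCY1, ADCY2 and AKAP8 results was not tested.

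Among 9 tested A-kinase anchoring proteins, which tether PKA, AKAP8, a nuclear member, passed the unadjusted threshold by day. AKAP8 read 135 at 3 AM, 236 at 7 AM, 198 at 11 AM, 232 at 3 PM, 68 at 7 PM and 148 at 11 PM, a day difference of 0.99 ± 0.30 (log2, SE, limma unadjusted p = 0.00951). It passed with each array left out in turn, at 0.64 to 1.20, but it was -0.20 with the day taken as 11 AM, 3 PM and 7 PM. Neither AKAP8 nor ADCY2 passed by day with the ordinary t statistic. The mean of AKAP8 lay at the level filter, with 7.80 by day and 6.81 by night on the log2 scale, so it was tested only through its day readings. A second AKAP8 probe set, below the level filter, had overlapping day and night readings. The other 8 genes lay between -0.30 and 0.39.

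On the brightest probe set of each gene, the other groups held none past the unadjusted threshold in either test. The 7 tested phosphodiesterases outside the PDE8 family had day differences between -0.34 and 0.21, and peak-to-trough differences of at most 0.68 on the log2 scale. The 8 tested genes of the CREB family and its coactivators lay between -0.52 and 0.31 by day, and the 4 tested PKA inhibitor and salt-inducible kinase genes between -0.31 and 0.49. MRAP, the accessory protein of the ACTH receptor, was not on a probe set naming it alone.

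Upstream of PKA, MC2R read 189.6 at 3 AM, 350 at 7 AM, 23.6 at 11 AM, 161 at 3 PM, 204 at 7 PM and 337 at 11 PM. Its log2 range was 3.83, with a single low reading at 11 AM and the other 5 arrays between 161 and 350. The mean of MC2R lay close to the level filter, at level percentile 50.8. It was 6.81 by day and 7.88 by night on the log2 scale, so the day mean alone would not have passed the filter. The peak-to-trough difference of MC2R was 2.41 ± 1.03 (log2, SE, limma unadjusted p = 0.127). Without the 7 AM array it was 3.47 and passed the unadjusted threshold (limma unadjusted p = 0.00535). Without the 11 AM array it was 0.64. Its other 2 probe sets lay below the level filter and had their lowest readings at 11 PM and 3 AM, and 1 of them was highest at 11 AM. GNAS, the stimulatory G-protein alpha subunit, read 15286 at 3 AM, 24468 at 7 AM, 23955 at 11 AM, 21249 at 3 PM, 23609 at 7 PM and 23578 at 11 PM, lowest at 3 AM, with a day difference of 0.18 ± 0.23 (log2, SE, limma unadjusted p = 0.442).

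**Figure D5:**
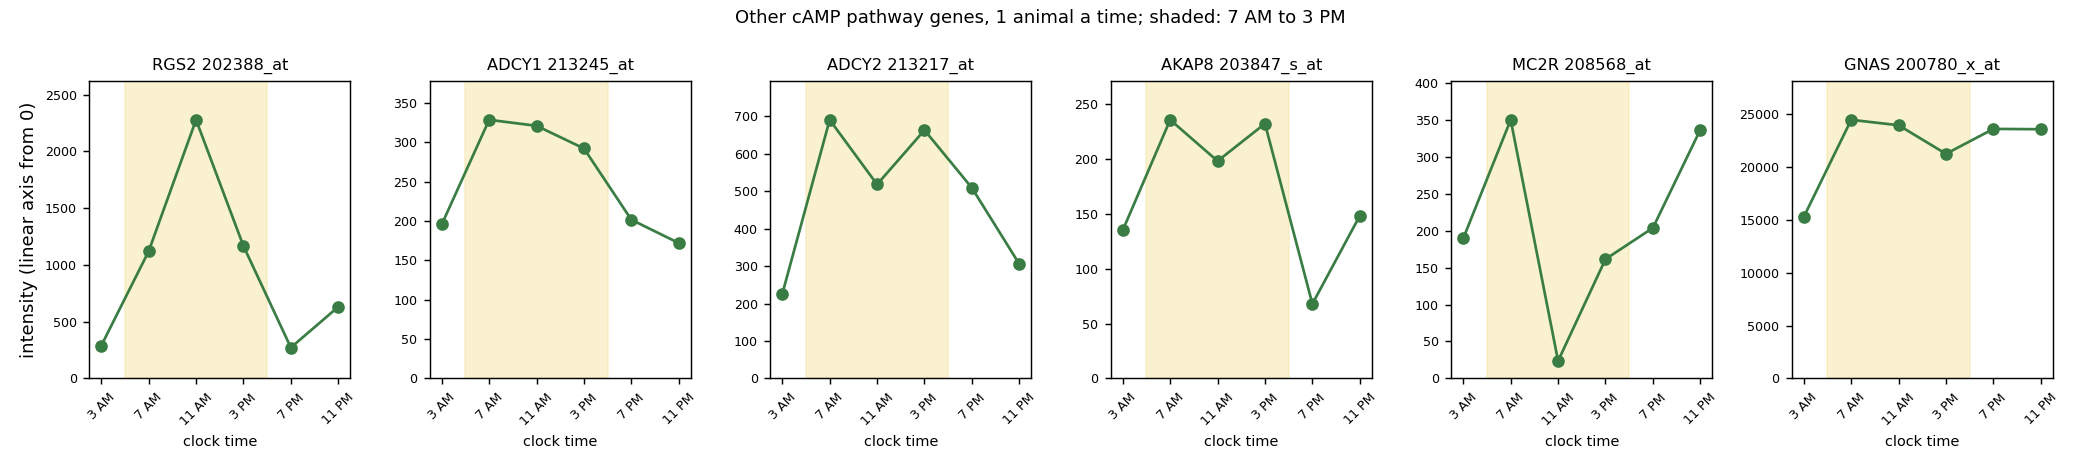
Intensity (linear axis from 0) of RGS2, ADCY1, ADCY2, AKAP8, MC2R and GNAS at the 6 clock times, 1 point per animal, on the brightest probe set naming each gene alone; shading marks 7 AM to 3 PM. RGS2, ADCY1, ADCY2 and AKAP8 have all day readings above all night readings, and MC2R has a single low reading of 23.6 at 11 AM.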

How the data were processed

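RNA from 6 left adrenals, 1 animal per clock time, was hybridised to an Affymetrix human expression array, per the labels' protocols. The deposited values are 1 linear intensity per probe set and array, from 0.1 to 40394; their trimmed means (2% cut at each end) lie between 325.04 and 325.09, and the arrays had thus been brought to 1 level by the authors. How probes were summarised, and with which software: not given in the sources used here. Of 22283 probe sets, 68 are controls; 19065 name 1 gene in the platform annotation, 1043 several and 2107 none. All 10 member symbols are in the RefSeq table of the species, which was used for names only.

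Values were turned into log2(intensity + 1). The 11108 of 22215 probe sets with a mean at or above the median, 7.30, were fitted together in limma 3.58.1 (R 4.3.3), with a 24-h cosine (3 residual degrees of freedom, moderated F test) and with day minus night, and p-values were adjusted by Benjamini-Hochberg over all 11108. Fold changes of dim probe sets are understated on this scale. The fits were tested on simulated data. Single probe sets also had an exact test of R2 over the 60 circular orders of the arrays.

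All member probe sets are described; of the other pathway genes, MC2R, MRAP, GNAS and those with an unadjusted limma p under 0.05 are named, together with the 3 probe sets of other genes most correlated with the member of smallest cosine p. Members and lists were chosen with earlier results of these data known. The alternatives were the level filter, the pseudocount, the scaling of arrays, 1 probe set per gene, the prior, age as a covariate, another choice of day hours, and each array left out.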

Additional observations from a re-analysis of the deposited data

Results flagged for a closer look

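In 4 of the 24 member probe sets, of which 19 were tested, the reading of 1 array lay far from those of the other 5. This was by Dixon's criterion (the gap to the nearest reading over the whole range on the log2 scale, set against the 95% critical value for 6 values). The 6 arrays differ in clock time, so they are not replicates of 1 condition, and chance alone picks about 1 in 20 such groups. PRKACA 216234_s_at read 60.8 at 3 PM, where the median of the other 5 arrays was 215 (gap over range 0.702). CREB1 204313_s_at read 241.8 at 3 PM, beside a median of 476 (0.730). PRKACB 202741_at read 2875.1 at 7 AM, beside a median of 1870 (0.759). PRKAR1B 212555_at, below the level filter, read 129.6 at 7 AM, beside a median of 40.4 (0.695). Of all 11108 probe sets tested, 6.85% had such an array, 1.19% at 3 PM and 1.55% at 7 AM. These shares leave out probe sets below the level filter, such as PRKAR1B 212555_at.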

How the results depend on the processing

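No paired analysis was possible because there is 1 animal at every hour, with no number shared between hours. The member counts after adjustment were 0 under every alternative run, in the cosine and in the day contrast. The unadjusted member count of 1 in the cosine was 0 with no filter, 0 with 1 probe set a gene, 0 with the ordinary F test, 2 with arrays centred on the median, 2 without the 3 AM and 3 PM arrays (an alternative chosen after seeing the data), and 0 to 2 with each array left out. A count of 1 was not always the same probe set: with the stricter filter and with the trend and robust prior it was PRKACB 202742_s_at in place of PRKACA 216234_s_at. That of 1 in the day contrast was 0 with no filter, 0 with median centring, 0 with 1 probe set a gene, 0 with the ordinary t statistic and 0 to 2 with each array left out. There the count of 1 was PRKACA 216234_s_at in place of PRKACB 202742_s_at without 7 AM and with the day taken as 11 AM, 3 PM and 7 PM. The pathway count of 3 in the cosine was 1 with no filter and 2 to 5 with each array left out (5 without 7 AM). The pathway count of 4 by day was 2 with the stricter filter, 0 with the day taken as 11 AM, 3 PM and 7 PM, and 3 to 5 with each array left out. With that day, PRKACB 202742_s_at turned to -0.22 and AKAP8 to -0.20. Of 308 single day values of members under alternatives, 298 kept their side of the threshold. Of those, 30 had passed in neither case and changed sign. Of 289 cosine values, 272 kept their side, and 16 that passed in neither case moved their peak by over 6 h. In each main fit only 1 of 19 member probe sets passed, so nearly all values kept their side by not passing. PRKACB 202742_s_at, which passed by day, lost its call in 6 day values and also turned in sign in 1. PRKACA 216234_s_at, which passed in the cosine, lost its call in 7 cosine values. Why these values moved was not tested. With 1 animal per clock time, animal, age and hour cannot be told apart.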

Other observations

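GNAS, named above on its brightest probe set, is measured by 9 probe sets, and it is described further here because of its values. Of the 8 that passed the level filter, 7 were lowest at 3 AM, beside 17.4% of all probe sets tested. By day 7 of the 8 were higher, beside 5505 of the 11108 probe sets tested. The 8 had log2 day differences between -0.16 and 0.72. The difference was 0.72 ± 0.20 on 214157_at and 0.66 ± 0.20 on 217057_s_at (SE, limma unadjusted p = 0.00698 and 0.00853, adjusted p = 0.841 for both). Over all probe sets tested, 2.93% were higher by day at an unadjusted limma p under 0.05. Only these 2 of the 8 GNAS probe sets had an unadjusted limma p under 0.05 by day. On the brightest, 200780_x_at, the day difference was 0.18 ± 0.23 (log2, SE). The GNAS probe sets share the 6 arrays and may share transcripts, and which transcripts each one matches was not analysed here. The 3 AM array had the dimmest hybridisation controls and the lowest summed intensity of medulla markers, and the part of these in the GNAS readings was not tested.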
